A study of Mus musculus with 9 samples.

Results

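The 8 genes Adipoq, Cfd, Retn, Lep, Car3, Fabp4, Pparg and Lpl, known for their expression in fat cells, were followed in RNA of the mouse jejunum. They were chosen by name, as the probe rows whose gene symbol is one of these 8 names or an older name of the same gene, and make up 8 of the 15674 gene symbols and 10 of the 33012 probes of the array. Adipoq was carried on the array under its older symbol Acdc, matched as a synonym, and Cfd as Adn, matched by its transcript accession. Car3 and Fabp4 had 2 probes each and the other genes 1.

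The samples were 9 male OF1 mice, an outbred strain, aged 7 weeks and of generation 3 on their feed, kept on feed B, feed K or feed G (3 mice per feed), and each mouse had 1 single-colour Applied Biosystems array. Feed and water were free until a short fast, with water left in place, that the study's methods give in the light phase before sampling, and sampling was not randomized over the time of day. What the feed letters stand for is not given in the sources used here and none of the feeds is named as a control, so that the feeds were compared with each other. RNA came from about 50 mg of a 2 cm segment of whole jejunal wall, with all its cell types, and how much mesentery stayed on a segment is not given in the sources used here.

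White fat cells, or adipocytes, store triglyceride in a large droplet and release hormones into the blood. The mesentery that carries the vessels to the small intestine holds white fat which reaches the gut wall, whereas the wall itself is mostly epithelium, connective tissue, muscle and immune cells. Adipoq, Lep, Retn and Cfd encode proteins secreted by adipocytes, Fabp4, Lpl and Car3 encode proteins of their cytoplasm or of lipid uptake, and Pparg encodes the nuclear receptor that directs their differentiation. Several of these genes are also used elsewhere, Pparg by gut epithelium, Fabp4 by capillary endothelium and macrophages, Car3 by skeletal muscle and Lpl by muscle and macrophages.

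Promoter sequence was at hand for 5 of the 8 genes, from RefSeq on build GRCm38.p6, as 250 bases before to 50 after each start of transcription. The promoters of Adipoq and Cfd, the hormone and the protease that lead the description below, and of Lep, a hormone gene near the limit of detection, are shown 5′ to 3′ with matches to 5 short motifs in capitals. The motifs were the CCAAT box, the TATA box written as TATAAA, the GC box GGGCGG, the core site AGGTCA of nuclear receptors and the core TTNNGCAA bound by C/EBP factors. Each was searched on both strands, and no matches overlapped each other in these 3 windows.
Adipoq, chr16:23146286-23146585, plus strand: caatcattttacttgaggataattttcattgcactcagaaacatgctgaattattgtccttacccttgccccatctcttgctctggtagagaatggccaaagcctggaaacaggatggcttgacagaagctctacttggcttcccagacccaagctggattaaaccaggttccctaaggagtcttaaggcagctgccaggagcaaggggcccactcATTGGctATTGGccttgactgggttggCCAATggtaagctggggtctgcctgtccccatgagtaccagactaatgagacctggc
Cfd, chr10:79890603-79890902, plus strand: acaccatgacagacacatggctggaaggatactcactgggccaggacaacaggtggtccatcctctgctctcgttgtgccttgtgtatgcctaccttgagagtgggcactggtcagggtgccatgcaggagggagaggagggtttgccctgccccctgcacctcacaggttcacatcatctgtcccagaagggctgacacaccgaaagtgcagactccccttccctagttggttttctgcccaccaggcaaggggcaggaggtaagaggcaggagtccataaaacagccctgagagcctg
Lep, chr6:29059971-29060270, plus strand: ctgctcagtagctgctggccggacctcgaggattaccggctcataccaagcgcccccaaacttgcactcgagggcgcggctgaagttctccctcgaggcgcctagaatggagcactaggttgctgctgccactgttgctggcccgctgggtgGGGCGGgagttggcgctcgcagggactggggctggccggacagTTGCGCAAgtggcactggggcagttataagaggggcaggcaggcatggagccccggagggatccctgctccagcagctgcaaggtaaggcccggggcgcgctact

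The Adipoq window held the CCAAT motif 3 times, starting 34, 27 and 7 bases before the start of transcription, and 37.4% of all 32851 promoters of the table held it at least once. The Lep window held TTNNGCAA once, 55 bases before the start, a motif found in 10.8% of all promoters, and GGGCGG once, found in 35.7%. None of the 5 motifs was written in the Cfd window, which says only that these letters were not in these 300 bases.

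A spot was called detected when its signal-to-noise ratio was 3 or more, a gene when any of its probes was, and levels below are log2 of the quantile normalized signal. On that scale a difference of 1 is a doubling, and levels of different genes are not comparable because each probe has its own response. The array files gave 33.7% to 48.1% of probes as detected, lowest in feed B mice 8 and 7 (33.7% and 36.7%). Feed G had 46.4% to 48.1%, and feed K mouse 3, at 47.6%, lay within that range. Fabp2, Fabp1, Anpep, Vil1, Apoa4 and Slc5a1, all enterocyte genes, were detected on all 9 arrays. So were the smooth muscle genes Actg2, Myh11, Tagln and Des. No marker of a single segment of the small intestine was examined, so that the label jejunum was not checked further.

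Adipoq, Cfd, Car3 and Fabp4 were detected on all 9 arrays and Pparg on 8, whereas Lep was detected on 3, Retn on 2 and Lpl on none. The 4 genes that were always detected varied several-fold between mice, and mostly in the same mice: feed B mouse 10 was the highest of the 9 for each of them, and feed B mice 7 and 8 were among the 3 lowest for each. The spread lay mainly within feeds and was widest in feed B for Adipoq, Cfd and Car3. For Fabp4 it was about equal in feeds B and K on the mean of its 2 probes, but widest in feed B on the brighter probe. No member differed between feeds after adjustment over all genes.

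**Figure D1:**
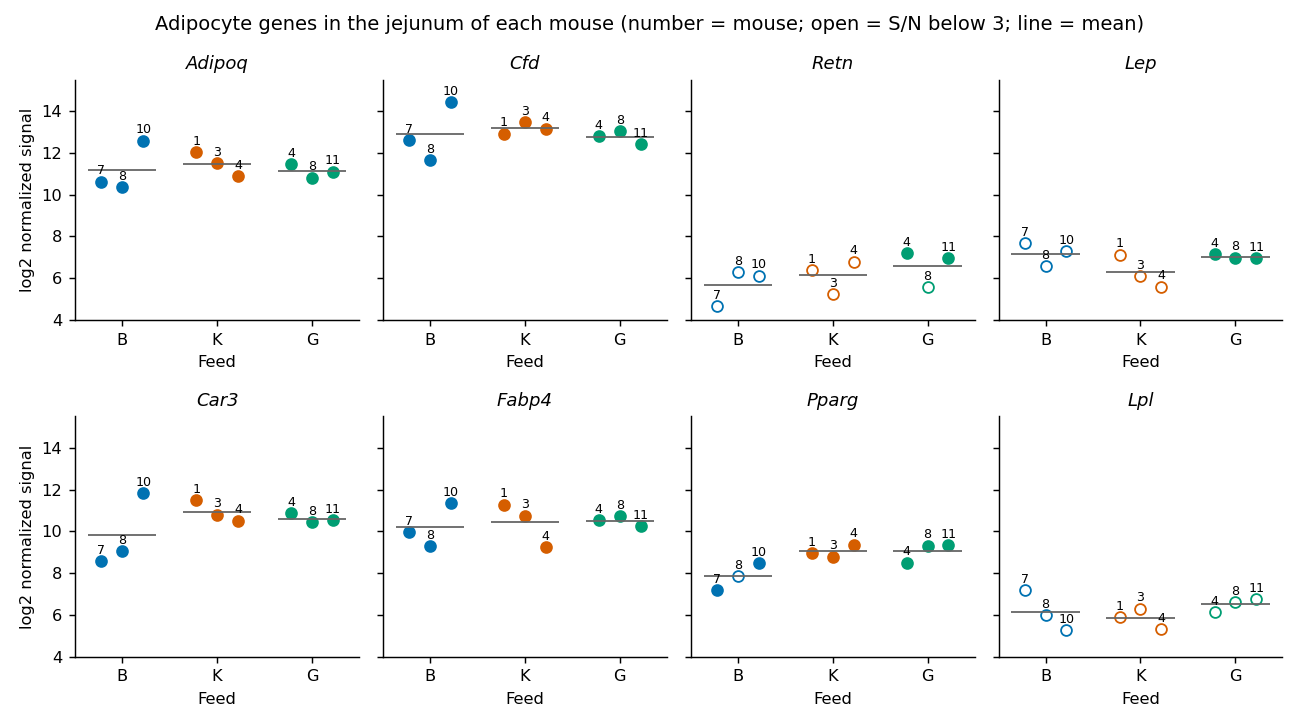
The log2 normalized signal (y axis) of each gene is plotted by feed (x axis), 1 point per mouse with the mouse number above it; filled points are detected (signal-to-noise ratio of 3 or more), open points are not, and lines are feed means of 3 mice. Adipoq, Cfd, Car3 and Fabp4 are filled in all 9 mice and highest in feed B mouse 10, while Lpl is open in all 9.

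Adipoq encodes adiponectin, an abundant adipocyte hormone. Its log2 signal was 10.62, 10.37 and 12.59 in feed B mice 7, 8 and 10, 12.02, 11.49 and 10.88 in feed K mice 1, 3 and 4, and 11.48, 10.82 and 11.10 in feed G mice 4, 8 and 11. Feed B thus held both the 2 lowest mice and the highest one, and the feeds overlapped. The highest mouse was 4.65-fold above the lowest, both of them on feed B, against a span of 2.21-fold within feed K and 1.57-fold within feed G. Feed means were 11.19 ± 1.21, 11.46 ± 0.57 and 11.13 ± 0.33 for B, K and G (SD, n = 3 each). Feed accounted for 4.71% of the variance of Adipoq over the 9 mice, and for a median of 23.1% over the 9556 genes tested that had a value on every array. The SD of Adipoq over the 9 mice was 0.71, larger than the SD of 94.1% of 5901 genes that every array detected, whose median SD was 0.29.

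Cfd encodes complement factor D, or adipsin, the serine protease that starts the alternative pathway by cutting factor B. Its log2 signal was 12.61, 11.65 and 14.42 in feed B mice 7, 8 and 10, 12.92, 13.47 and 13.15 in feed K mice 1, 3 and 4, and 12.81, 13.02 and 12.43 in feed G mice 4, 8 and 11. As for Adipoq, feed B mice 8 and 10 were the lowest and the highest, here 6.81-fold apart, and the feeds overlapped. Within feeds K and G the span was 1.47-fold and 1.51-fold.

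Lep encodes leptin, the hormone that reports the size of the fat stores. The log2 signal of Lep was 7.68, 6.59 and 7.29 in feed B mice 7, 8 and 10, 7.13, 6.11 and 5.59 in feed K mice 1, 3 and 4, and 7.15, 6.99 and 6.95 in feed G mice 4, 8 and 11. It was detected in all 3 mice of feed G, at signal-to-noise ratios of 3.06 to 4.50, and in none of feeds B and K, where the ratio reached 2.91. The feed B values, though below that limit, overlapped those of feed G and no fold between these feeds is given. In feed K all arrays gave only a bound (the higher of the measured value and the lowest detected signal of the array). The feed G mean of Lep was 1.47-fold above that bound (adjusted p of G minus K = 0.96, limma). These feeds overlapped as well, since feed K mouse 1 at 7.13 lay above feed G mice 8 and 11. The lowest detected signal of an array is no ceiling for a single spot, as undetected Lep in feed B mouse 7 read 7.68. The arrays of feed G also had high shares of detected probes, and the part of this in the calls for Lep was not tested.

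Retn encodes resistin, another adipocyte hormone of the mouse. It was detected only in feed G mice 4 and 11, at ratios of 4.02 and 3.32, and its log2 signal there was 7.21 and 6.96, against 5.58 in feed G mouse 8. In the other feeds it lay between 4.67 and 6.29 (B) and between 5.25 and 6.80 (K), not well above background in any mouse. With 2 of 3 feed G mice detected, the feed G mean was 1.44-fold above the same kind of bound for feed B and 1.12-fold above that for feed K. The ranges overlapped, and such a bound is no ceiling for a single spot. Detected on fewer than 3 arrays, Retn was not tested.

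Car3 encodes carbonic anhydrase 3, a very abundant cytoplasmic protein of mouse white fat. Its log2 signal, the mean of both probes, was 8.59, 9.05 and 11.84 in feed B mice 7, 8 and 10, 11.49, 10.81 and 10.51 in feed K mice 1, 3 and 4, and 10.87, 10.44 and 10.52 in feed G mice 4, 8 and 11. Feed B mice 7 and 8 stood below all other mice and feed B mouse 10 above them, a span of 9.50-fold, while feeds K and G spanned 1.97-fold and 1.35-fold. The brighter probe, detected in all 9 mice, spanned 9.71-fold and again had its lowest and highest mouse in feed B. Feed B was the one feed in which the dimmer probe missed detection, in 2 of 3 mice. On the brighter probe alone, the means were 12.90 ± 1.67 (B), 13.36 ± 0.62 (K) and 12.92 ± 0.06 (G) (SD, n = 3). The dimmer probe gave 6.75, 8.52 and 8.30, and the 2-probe average 9.83 ± 1.76, 10.94 ± 0.50 and 10.61 ± 0.23. G minus B was thus 0.02 on the brighter probe and 0.78 on the average, and K minus B 0.46 and 1.11.

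Fabp4 encodes the fatty acid binding protein of the adipocyte cytoplasm. Its log2 signal, again the mean of both probes, was 9.98, 9.28 and 11.36 in feed B mice 7, 8 and 10, 11.27, 10.76 and 9.25 in feed K mice 1, 3 and 4, and 10.52, 10.74 and 10.24 in feed G mice 4, 8 and 11. Feed B mouse 10 was highest and feed K mouse 4 lowest, with feed B mouse 8 next to it, over a span of 4.33-fold. Feeds B and K spanned about as much, 4.24-fold and 4.07-fold, and feed G 1.42-fold. On the brighter probe alone the spans were 4.93-fold in feed B, 2.52-fold in feed K and 1.47-fold in feed G. The probes disagreed on feed K mouse 4: the brighter one, detected in all 9 mice, put it at 13.01 and had its lowest mouse in feed B mouse 8 at 12.05, while the dimmer one, detected in 5 mice, put it lowest at 5.49. Lpl encodes lipoprotein lipase, which frees fatty acids from circulating lipoproteins. Its probe was not detected in any mouse, with a signal-to-noise ratio of at most 2.53 and below 1 in 6 mice, and its values between 5.27 and 7.17 carry no order.

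Pparg followed another pattern. Its log2 signal was 7.18, 7.87 and 8.49 in feed B mice 7, 8 and 10, 8.97, 8.79 and 9.36 in feed K mice 1, 3 and 4, and 8.50, 9.32 and 9.35 in feed G mice 4, 8 and 11, with feed B mouse 8 not detected. All feed B mice lay below all mice of feeds K and G, though the closest mice of B and G were at 8.488 and 8.504, while K and G overlapped. Over all genes, 35.8% had their lowest value in feed B mouse 7 or 8. How many of them had feed B wholly apart was not counted, so that the separation cannot be called particular to Pparg. The difference was 1.19 ± 0.38 (SE) for K minus B and 1.21 ± 0.38 for G minus B, unadjusted p of 0.0129 and 0.0120 and adjusted p of 0.77 and 0.73 (limma, Benjamini-Hochberg over 9654 genes). The share of detected probes was lowest in feed B mice 7 and 8 as well. It was correlated with Pparg over the mice (r = 0.70, n = 9, a description), and its part in the difference was not tested.

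None of the members passed an adjusted p of 0.05 in the F test over feeds or in any of the 3 contrasts, against a background of 0% of the 9654 genes tested in each (0 genes; 518 at an unadjusted p under 0.05 in the F test, 610 for K minus B, 554 for G minus B and 438 for G minus K). Retn and Lpl were below the detection filter, so that 6 members were tested. For Adipoq the differences were 0.27 ± 0.58 (SE) for K minus B, -0.06 ± 0.58 for G minus B and -0.33 ± 0.58 for G minus K, and those of Cfd were 0.28, -0.14 and -0.43, each with an SE of 0.61. Car3 gave 1.11 ± 0.76 for K minus B and 0.78 ± 0.76 for G minus B, and Fabp4 gave 0.22 and 0.29 with an SE of 0.63. Without feed B mouse 10, the differences of Car3 were 2.12 and 1.79 (limma adjusted p = 0.060 and 0.124). That left feed B mice 7 and 8, in which the dimmer Car3 probe was not detected (log2 signal 4.63 and 6.65) and lowered the 2-probe mean. Pparg was the one member of the 6 whose F test had an unadjusted p under 0.05 (limma adjusted p = 0.85), and the limma adjusted p values of the other 5 in the F test were 0.90 to 0.98. In bulk tissue, fewer cells of a type and less RNA per cell cannot be told apart, and this holds for each level given here.

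Co-variation was measured against Adipoq, the hormone gene detected on every array. Car3 had Pearson's r of 0.88 with Adipoq over the 9 mice (exact permutation p = 0.0022, two-sided) and Spearman's rho of 0.97 (exact p = 0.00017). For Fabp4 r was 0.84 (exact permutation p = 0.0052) and rho 0.82 (exact p = 0.0108). Cfd followed with r of 0.78 (exact permutation p = 0.0116) and rho of 0.65 (exact p = 0.0666). Pparg (r = 0.24, rho = 0.17, exact permutation p = 0.54 and 0.68) and Lep (r = 0.22, rho = 0.18, exact permutation p = 0.58 and 0.64) had low coefficients. These are 5 relations, and in the regression of every gene on Adipoq the adjusted p was 0.496 for Car3, Fabp4 and Cfd alike (limma, Benjamini-Hochberg over 9653 genes), where 0% of genes passed in either direction (0 genes; 882 at an unadjusted p under 0.05). The slopes on the log2 scale were 1.30 ± 0.24 (SE) for Car3, 0.91 ± 0.21 for Fabp4 and 0.84 ± 0.23 for Cfd per unit of Adipoq.

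**Figure D2:**
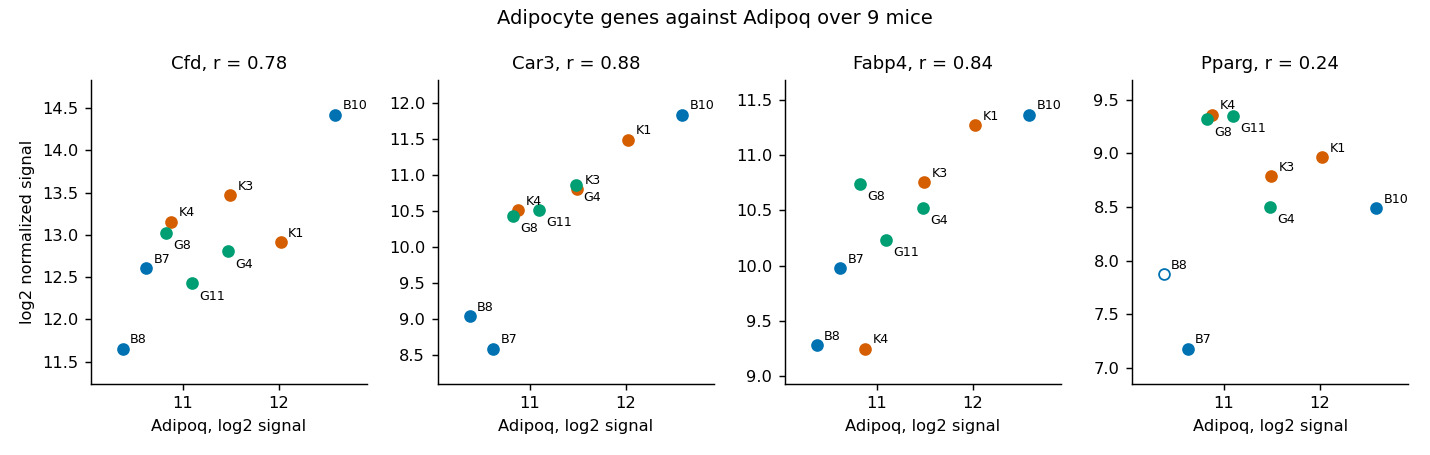
The log2 normalized signal of Cfd, Car3, Fabp4 and Pparg (y axes, each with its own range) is plotted against that of Adipoq (x axis) for the 9 mice, named by feed letter and mouse number; the open point is not detected. Cfd, Car3 and Fabp4 rise with Adipoq (r of 0.78, 0.88 and 0.84), with feed B mouse 10 at the upper end and feed B mouse 8 at the left, and Pparg does not follow it (r = 0.24).

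On deviations from the feed means, r with Adipoq was 0.95 for Car3, 0.86 for Fabp4 and 0.77 for Cfd. Feed B weighs most in these values, as the SD of Adipoq was 1.21 there, 0.57 in feed K and 0.33 in feed G. Without feed B mouse 10 and feed K mouse 1, the 2 mice farthest from the median of Adipoq, r was 0.83, 0.68 and 0.67 over 7 mice. Leaving out feed B mice 7 and 8 instead, the arrays with the fewest detected probes, gave 0.99, 0.76 and 0.67, but turned Pparg to -0.77. The brighter probes alone, both detected in all mice, had r of 0.94 (Car3, exact permutation p = 0.00013) and 0.93 (Fabp4, exact permutation p = 0.00026), and the dimmer ones 0.70 and 0.64. When the dimmest spots, those under a signal-to-noise ratio of 1, were left out, r fell to 0.51 for Car3 and 0.0022 for Fabp4, because a mouse whose dim spot is dropped is then represented by its brighter probe only, on another level. The share of detected probes moved with these genes as well, with r over the 9 mice, as a description, of 0.42 for Adipoq, 0.50 for Cfd, 0.59 for Fabp4 and 0.66 for Car3, and its part in their co-variation was not tested beyond leaving out those 2 arrays. Relative to Adipoq, the log2 difference of the brighter Fabp4 probe had an SD of 0.27 over the mice, against 0.74 for that probe itself, and the brighter Car3 probe 0.35 against 0.92.

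Among the 6 pairs of Adipoq, Cfd, Car3 and Fabp4, r was between 0.65 (Cfd with Fabp4) and 0.88, and 2 pairs reached 0.8. Over all 28 pairs of the 8 genes, those not detected included, the same 2 pairs reached 0.8, which is 7.14%, with a median r of 0.21. Of the 45653790 pairs among the 9556 genes tested with a value on every array, 1.21% reached 0.8, with a median r of 0.01.

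Other genes of the adipocyte were read from a list of 20. The array carried 19 of them, and 16 passed detection on 3 arrays or more. Their r with Adipoq was positive for 15 of 16 and 0.6 or more for 12 (75.0%), with a median of 0.63, against 9.21% of genes at 0.6 or more and a median of 0.07 over all 9555 genes. The 2 that reached 0.8 were Slc2a4, the insulin-responsive glucose transporter (r = 0.88), and Nnat, neuronatin (r = 0.83). The lipid droplet genes Plin4 (0.77), Cidea (0.73), Cidec (0.63) and Plin1 (0.62) were among the 12, as were Lgals12 (0.78), Thrsp, a regulator of lipogenesis (0.76), Tusc5 (0.65), Rbp4, the retinol carrier (0.62), Sncg (0.60) and Cebpa, a partner of Pparg in adipocyte differentiation (0.60). Adig (0.32), Aqp7, a glycerol channel (0.16), and the lipases Lipe (0.08) and Pnpla2 (-0.26) had lower values, and of these Pnpla2 varied only 1.42-fold over the mice. Of the 16 genes, 8 were highest in feed B mouse 10, as were 11.6% of all genes, and 12 of the 16 were lowest in feed B mouse 7 or 8, as were 35.8% of all genes. Without those last 2 arrays the median r of the 16 genes was 0.67, and 0.03 over all genes.

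**Figure D3:**
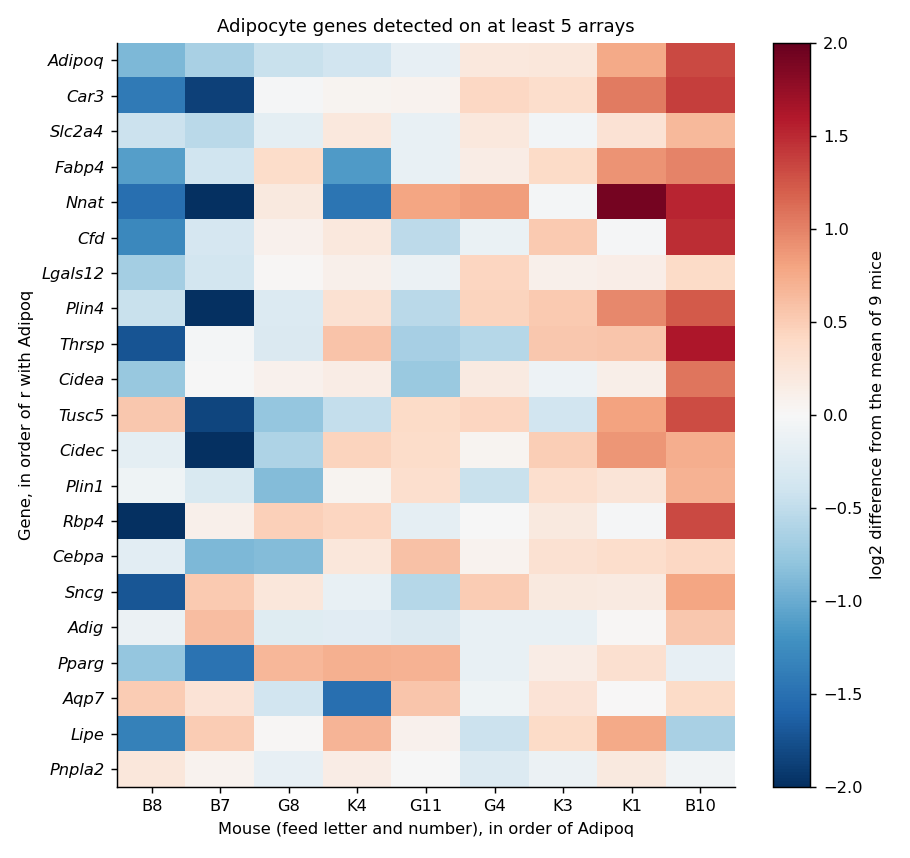
The colour is the log2 difference of a gene in a mouse from its mean over 9 mice, for the 21 adipocyte genes detected on at least 5 arrays (rows, in order of r with Adipoq), with mice (columns, feed letter and number) in order of Adipoq; differences beyond 2 are drawn as 2. Rows from Car3 to Sncg are mostly blue in B8 and red in B10. The rows of Pparg and Lipe are blue in B8 but not red in B10, and those of Aqp7 and Pnpla2 are not blue in B8.

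The summed normalized signal of the 16 genes was 14746 to 23864 in feed B, 17307 to 21099 in feed K and 13914 to 15923 in feed G. Pnpla2 alone, which did not follow Adipoq, made up 31.0% to 60.9% of this sum, and without it the other 15 summed to 5830 to 16472, 9545 to 12273 and 7049 to 8972. That of the members detected on at least 3 arrays was 6029 to 34926, 13777 to 18249 and 11148 to 14000. Cfd was the largest part of this members' sum in every mouse, with 3222 to 21951 in feed B, 7728 to 11336 in feed K and 5502 to 8333 in feed G. None of the 16 had an unadjusted p under 0.05 in the F test over feeds. Adrb3 and Sfrp5 were not detected in any mouse and Npr3 in 1. Of the genes typical of brown fat, Ucp1, the uncoupling protein that defines it, Elovl3, Dio2 and Otop1 were not detected in any mouse, Cox8b was detected on 7 arrays with r of 0.82, and Cox7a1 on all 9 with r of -0.52.

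Genes of lipid synthesis and storage, which gut epithelium uses too, were read from a list of 18, of which all 17 with a probe of their own were detected on at least 3 arrays. Their median r with Adipoq was 0.38 and 5 (29.4%) were at 0.6 or more, against 9.21% of all genes. The 4 brightest were low, at -0.27 for Gpd1, 0.05 for Dgat1, 0.32 for Dgat2 and -0.22 for Pck1. Scd1, which makes monounsaturated fatty acids (0.87), Mgll, the monoglyceride lipase (0.81), Lpin1 (0.80), Fasn, the fatty acid synthase (0.78), and Acsl1 (0.61) made up the 5, named after their values were seen. Scd1 spanned 6.24-fold over the mice and Fasn 3.04-fold.

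Receptors and partners of the members had a median r of -0.13 over the 12 genes tested. The adiponectin receptors Adipor1 and Adipor2 were detected in all mice, with r of -0.42 and -0.35 and spans of 1.52-fold and 1.82-fold. Lepr, the leptin receptor, was detected in 1 mouse, and Apoc2 and Apoc3, activator and inhibitor of lipoprotein lipase and made by enterocytes, had r of -0.26 and -0.10. The 2 partners with r of 0.6 or more, 16.7% against 9.21% of all genes, were C3, the complement protein of the pathway that Cfd starts (0.69), and Cdh13, a cell surface protein that binds adiponectin (0.64, detected on 3 arrays), both singled out after their values were seen.

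Markers of other cells that could travel with mesentery or make up the wall had lower median coefficients over the 9 mice. The median r with Adipoq was 0.34 over 6 smooth muscle genes, 0.24 over 7 endothelial and 0.09 over 6 fibroblast genes. It was -0.02 over 8 macrophage, -0.38 over 7 lymphocyte and 0.05 over 6 enterocyte genes. None of these 40 genes reached 0.8, against 0.95% of all 9555 genes, so that this count is near the background. At 0.6 or more there was 1 of the 40, the smooth muscle gene Smtn (0.61), against 9.21% of all genes. Smtn was named after its value was seen. The brightest fibroblast genes, Dcn (0.03), Col3a1 (0.43), Col1a2 (0.05) and Col1a1 (0.13), and the brightest macrophage genes, C1qa (-0.34), C1qb (0.29), Emr1 (-0.70) and C1qc (-0.24), were each below 0.45 over the 9 mice. Without feed B mice 7 and 8 the fibroblast median was 0.53, that of smooth muscle 0.40, of endothelium 0.06, of macrophages 0.05, of lymphocytes -0.26 and of enterocytes -0.28, so that the distance between the adipocyte list (0.67) and the fibroblast genes was smaller on those 7 arrays. In the mesothelium, which covers the outer surface of gut and mesentery, 3 of 7 genes were detected on at least 3 arrays, with r of 0.72 for Msln, 0.39 for Krt19, which epithelium also makes, and 0.15 for Upk3b, while Wt1 and Lrrn4 were not detected in any mouse. The median of these 3 was 0.46 without feed B mice 7 and 8. The pancreas, which also lies in the mesentery, left Pnlip, Prss2 and Cela2a undetected in all mice. Of its other genes, Cela1 was detected on all 9 arrays, Try4 on 3, Amy2 on 2, and Ctrb1 and Cel on 1 each. The summed signal of the smooth muscle genes was 89622 to 104870 in feed B, 82508 to 112007 in feed K and 66022 to 106210 in feed G, and that of the fibroblast genes was 69651 to 96289, 54171 to 69231 and 51516 to 85381.

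**Figure D4:**
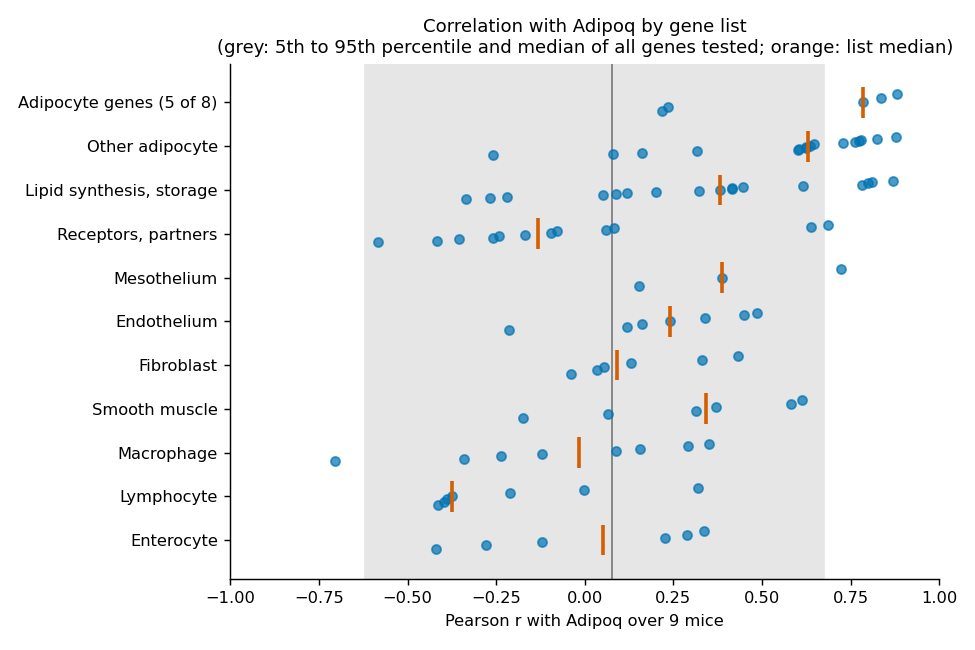
Each blue point is the Pearson r of 1 gene with Adipoq over 9 mice (x axis), for genes detected on at least 3 arrays in each list (y axis); orange bars are list medians, and grey shows the 5th to 95th percentile (-0.62 to 0.67) and the median (0.08) of all genes tested. The medians of the adipocyte lists lie at 0.78 and 0.63, and those of the other lists shown between -0.38 and 0.39.

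Genes whose pattern was most like that of Adipoq were taken as the 10 with the highest r among the 5886 others detected on all 9 arrays with a value on each. Car3 ranked 8, Slc2a4 11, Fabp4 33 and Cfd 62. The other 9 of the first 10 were Gal, the neuropeptide galanin (0.96), Fam20b, under its older symbol C530043G21Rik (0.96), Sec23b, a coat protein of vesicles leaving the endoplasmic reticulum (0.94), Ssr3, of the translocon (0.92), Fbl, fibrillarin (0.91), Mrpl12, of the mitochondrial ribosome (0.89), Atic, a purine synthesis enzyme (0.89), Ltbp3 (0.88) and Stom, stomatin, under Epb7.2 (0.88). These varied less than Adipoq and Car3, by 1.75-fold (Fam20b) to 3.47-fold (Stom) over the mice. All 9 had their lowest value in feed B mouse 7 or 8, and all but Mrpl12 their highest in feed B mouse 10. As they were picked for their r with Adipoq, which has its own extremes in these mice, the choice itself largely set this. Each of the 9 had the adjusted p of 0.496 in the regression on Adipoq, so that none passed.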

How the data were processed

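The members and gene lists were chosen with earlier results of these data known. RNA of 9 jejuna was hybridised to single-colour Applied Biosystems arrays, and chemiluminescence was gridded and quantified on the analyzer of the platform. The signal intensity of each spot was deposited by the authors as background-corrected and spatially normalized, with its standard deviation, a signal-to-noise ratio score and a flag. The deposited series table holds assay-normalized intensity in linear units, identical to a column of the array files, with column medians of 1.06 to 1.53; what it was divided by is unknown. The labels name RMA among the processing tools, with its role not given in the sources used here. Genome build of the probes was not stated.

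Spots flagged above 5000 were left out (432 to 1045 per array), signals were quantile normalized (arithmetic mean), converted to log2 and then averaged across all probes that share a symbol. Genes reaching a signal-to-noise ratio of 3 on at least 3 arrays and a value in each feed were tested with limma 3.58.1 in R 4.3.3, without covariates, p adjusted by Benjamini-Hochberg. Permutation tests of r and rho enumerated all orders of the mice (ranks and rho from scipy 1.17.1). The permutation F test was run in R over all distinct splits of the mice into 3 groups of 3. Functions were tested on simulated data. The number of arrays limits the precision. No array shares a barcode with another, so no batch holding several arrays was seen, and feed could not be separated from an unrecorded order of work. Labels call the samples separate mice but name no litters or cages.

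Named were the 8 members, the other adipocyte genes detected on at least 3 arrays, up to 4 of the brightest genes of each other list and the 10 genes most like Adipoq. Lists held 7 to 20 genes. Probes shared by several symbols (those of Ppargc1a, Acta2 and Ccl21a) were not used. Alternatives were scaling to the median, the deposited series table, only the brightest probe per gene, failed spots kept, spots under a signal-to-noise ratio of 1 dropped, other filters, each array left out, an exact permutation F test, an unmoderated F test and feed as covariate. Leaving out the 2 arrays with the fewest detected probes, or the 2 mice farthest from the Adipoq median, was added after seeing the data.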

Additional observations from a re-analysis of the deposited data

How the results depend on the processing

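Every count of members past the threshold was 0 under all alternatives run. Counts over all genes rose from 0 to 3 (F test, G minus B and G minus K) with spots below a signal-to-noise ratio of 1 left out, to 1 (F test and G minus B) with genes detected on all 9 arrays, and to 1 with the unmoderated F test; leaving out each array gave 0 to 3 for the F test, 0 to 10 for K minus B and 0 to 3 for G minus B, in each case more than 0 only without feed B mouse 10. The exact permutation F test gave 0 genes (486 at an unadjusted p under 0.05, smallest adjusted p 0.67). Its p-values have a floor set by the few distinct splits of 9 mice. A gene could hardly pass after adjustment over 9556 genes, so that this 0 says little. The share of member pairs at r of 0.8 or more, 7.14%, was 3.57% to 17.9% when each array was left out, with 3.57% without feed B mouse 8 or 10, 14.3% without feed B mouse 7 and 17.9% without feed K mouse 4; it was 17.9% with median scaling, 14.3% with the brightest probe and 3.57% with spots below a ratio of 1 left out.

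Small feed differences turned direction. Median scaling, the series table and leaving out spots below a ratio of 1 gave G minus B of 0.52, 0.27 and 0.26 for Adipoq and 0.42, 0.16 and 0.11 for Cfd. Median scaling and the series table moved the median of all genes for G minus B to 0.53 and 0.30, from 0.06, and relative to that median Adipoq stood at -0.01 and -0.03. Leaving out spots below a ratio of 1 gave Car3 -0.088 (K minus B) and -0.33 (G minus B) and Fabp4 -0.37 (G minus B) and -1.10 (G minus K), and the brightest probe gave Fabp4 -0.13 for G minus K. With each array left out, K minus B was -0.14 to 0.97 for Adipoq, -0.34 to 1.05 for Cfd and -0.25 to 0.81 for Fabp4. G minus B was -0.47 to 0.64 for Adipoq, -0.76 to 0.62 for Cfd, -0.18 to 0.87 for Fabp4 and -0.48 to 0.092 for Lep, with 0.51 to 2.12 (K minus B) and 0.18 to 1.79 (G minus B) for Car3, both highest without feed B mouse 10, and G minus K was -0.52 to 0.50 for Fabp4 and -0.13 to 0.29 for Pparg. Pparg kept its direction against feed B in all of them, 0.87 to 1.51 for K minus B and 0.89 to 1.53 for G minus B. The r of Lep with Adipoq was -0.075 with the series table and -0.15 without the 2 mice farthest from the Adipoq median, and that of Pparg was -0.026 to 0.41 with each array left out and -0.77 without the 2 arrays with the fewest detected probes. The r of Cfd was 0.56 to 0.86, of Car3 0.84 to 0.93 and of Fabp4 0.78 to 0.92 with each array left out. Leaving out dim spots changes which probes a mouse's mean of Car3 or Fabp4 holds; the cause of the other turns was not tested. No paired analysis was run, since the labels give separate mice and no pairs between feeds, and a mouse number found in 2 feeds is not stated to mark a pair.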
